A study of Mus musculus with 2 samples.

Results

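The genes described here encode the microtubule motors of the cell: the kinesins with their light chains and accessory subunit, and cytoplasmic dynein 1. Of dynactin they encode p150, dynamitin, p24 and the pointed-end subunits Dctn4, Dctn5 and Dctn6. Members were chosen by name. A row of the gene tables was a member if its identifier mapped to a protein-coding mouse symbol of the Kif, Kifc, Klc, Kifap3, Dync1, Dynll, Dynlr, Dynlt or Dctn series. The rule used no measured value and found 66 of the 43346 genes in the tables, of which 21474 are protein-coding.

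The samples were 2 total RNA-seq libraries of midbrain from healthy mouse embryos of strain B6NCrl at 11.5 days of gestation, with males and females pooled. Replicate 1 pooled midbrains of 109 embryos and replicate 2 pooled those of 88 embryos. For each, 10 ng of RNA above 200 nucleotides was taken and spike-in RNA was added. There was 1 group and no treatment, so the comparisons are between genes within a library and between the libraries.

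Kinesins and dynein turn the energy of ATP into steps along microtubules, most kinesins towards the plus end and dynein towards the minus end. In a dividing neural progenitor, mitotic kinesins slide and crosslink spindle microtubules, move chromosomes and build the midzone where the cell cleaves. In a young neuron, axonal kinesins carry vesicles, organelles and cytoskeletal proteins outward, and dynein with its activator dynactin carries cargo back and also moves the nucleus. The midbrain of this stage holds both kinds of cell, and in bulk RNA fewer cells of a type and less RNA per cell cannot be told apart.

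The deposited tables held 38884247 expected counts on genes in replicate 1 and 45975100 in replicate 2. Levels are given as the deposited TPM, a share of all transcripts that corrects for transcript length and lets genes be compared within a library. The spike-ins took 15.2% and 14.8% of TPM. All 5 midbrain markers reached 1 TPM in both libraries, against 1 of 4 hindbrain markers, Gbx2 at 7.38 and 7.43 TPM. Otx2 was the highest midbrain marker at 169.4 and 171.3 TPM, and Cnpy1 and Pax3 were also above Gbx2. The midbrain markers En1, at 4.94 and 6.29 TPM, and En2, at 1.8 and 2.21 TPM, were below Gbx2. Cycling-cell, progenitor and neuron markers were all detected: 6 of 6, 5 of 5 and 6 of 6, with list medians of 198.1, 347.2 and 203.7 TPM in replicate 1 and 208.9, 410.9 and 189.8 TPM in replicate 2. The blood and vessel cells left in the tissue were also seen, with 6 of 6 erythroid markers and 4 of 4 endothelial markers detected. Their list medians were 28.5 and 18.8 TPM in replicate 1 and 28.3 and 17.0 TPM in replicate 2. The erythroid Hbb-y, at 8326.6 and 8295.5 TPM, had the highest mean of all protein-coding genes.

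The motors were broadly expressed. At a threshold of 1 TPM in both libraries 56 of the 66 members (84.8%) were detected, where 58.2% of all protein-coding genes were. The median member stood at 23.5 TPM in replicate 1 and 22.8 TPM in replicate 2, and the median protein-coding gene at 3.44 and 3.47 TPM. Of the 56 detected members, 38 were above the median of detected protein-coding genes (18.5 TPM), and 9 were in the top 10 percent. In descending order the role medians in replicate 1 were dynactin at 109.7 TPM, dynein light chains at 92.8, the dynein core at 66.1, axonal kinesins at 46.9, mitotic kinesins at 41.0, kinesin cargo-binding subunits at 20.1, other kinesins at 2.40 and cilium kinesins at 0.86. Replicate 2 gave the same order, from 107.0 TPM for dynactin to 0.86 for cilium kinesins. The top of this order depended on transcript type. On protein-coding transcripts alone the dynactin median was below that of the dynein light chains in both libraries. Dctn6 of dynactin had only 17.2 and 19.4 TPM on such transcripts, of 111.7 and 106.0 TPM listed.

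**Figure D1:**
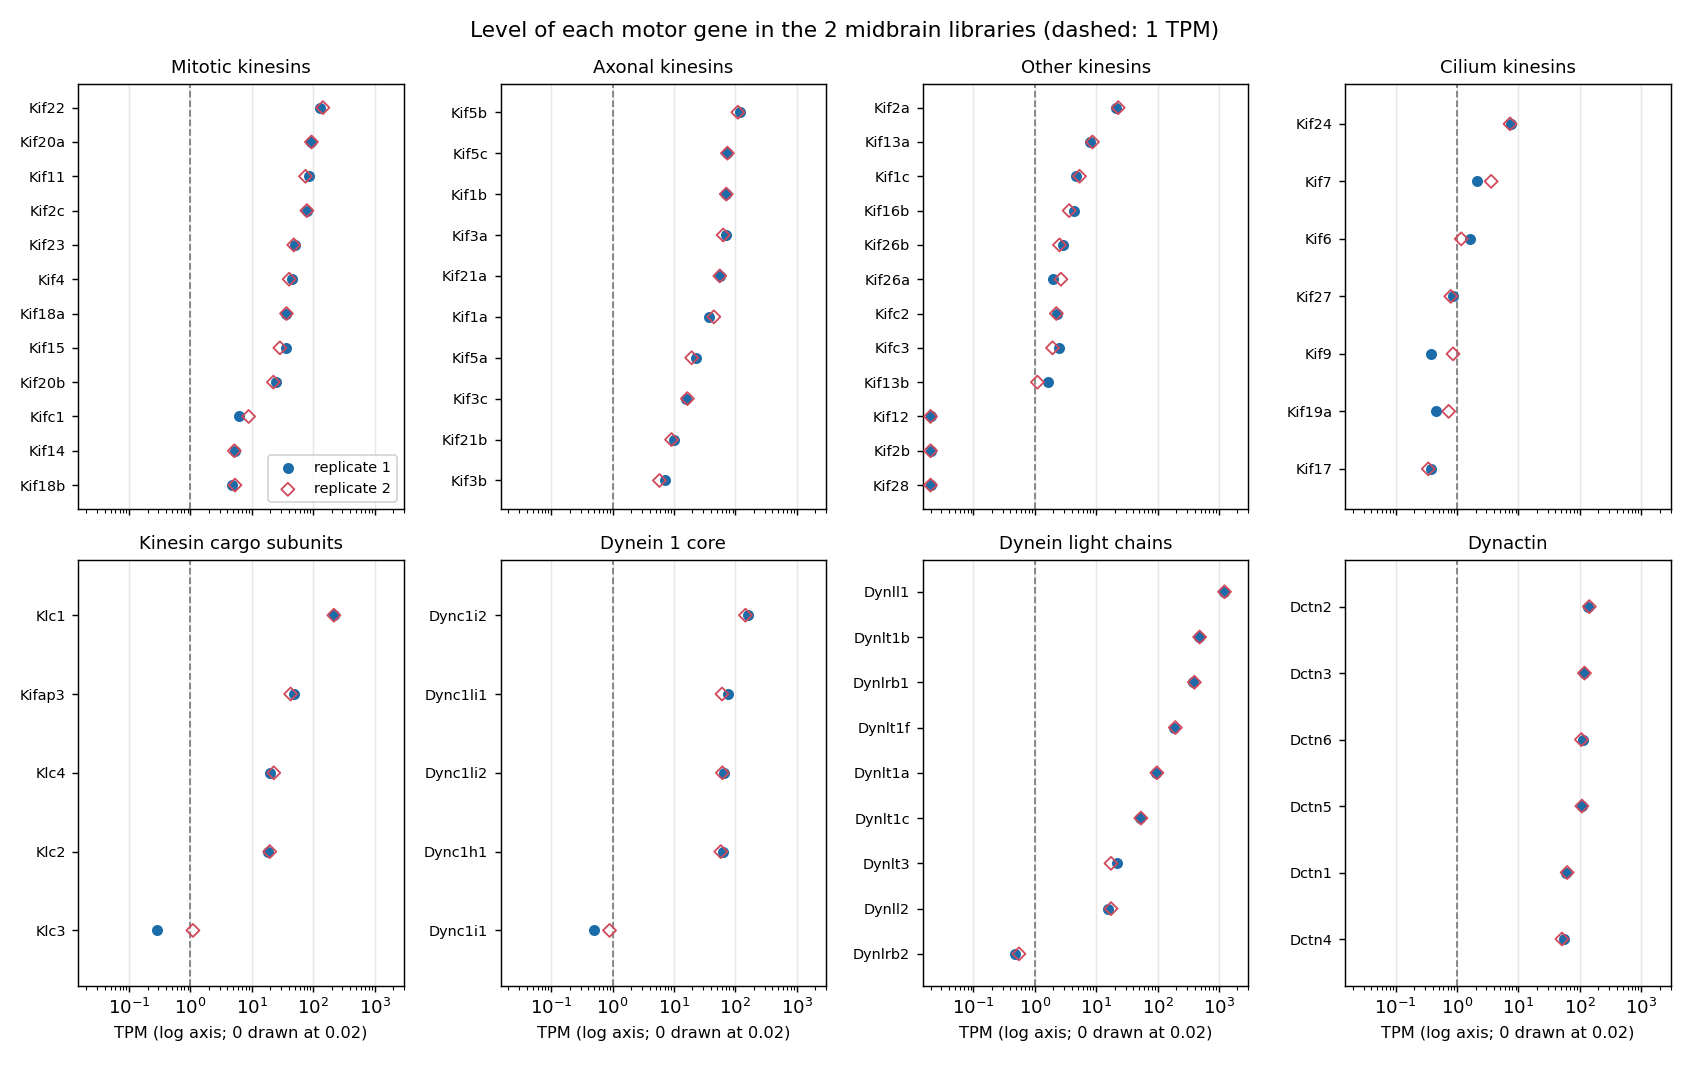
Level of each of the 66 genes in TPM (log axis) in replicate 1 (filled circles) and replicate 2 (open diamonds), by role; genes at 0 are drawn at 0.02 and the dashed line is 1 TPM. All mitotic, axonal and dynactin genes lie to the right of the line in both libraries, whereas 4 of the 7 cilium kinesins lie to its left.

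The 12 mitotic kinesins were all detected, and 9 of them reached 10 TPM. Kif22, the chromosome-arm motor Kid, was highest at 129.2 TPM in replicate 1 and 143.9 TPM in replicate 2. Kif20a, the midzone motor that brings the chromosomal passenger complex to the cleavage plane, stood at 93.7 TPM in both libraries. Kif11, the tetrameric motor Eg5 that pushes the spindle poles apart, was at 86.8 and 74.9 TPM, and Kif2c, the centromeric microtubule depolymerase MCAK, at 79.6 and 79.0 TPM. In every case these 4 genes were well above 18.6 TPM, the median of detected protein-coding genes in each library.

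A middle tier followed. Kif23, the motor of centralspindlin, was at 51.5 and 48.3 TPM, and Kif4, the chromokinesin that limits midzone length, at 45.5 and 40.6 TPM. Kif18a, which dampens chromosome movements at metaphase, was at 35.8 and 36.7 TPM, Kif15, which backs up Eg5, at 36.4 and 28.7 TPM, and Kif20b, a cytokinesis motor, at 24.6 and 22.5 TPM. The 3 lowest were separated from the rest by a gap: Kifc1, the minus-end motor HSET that bundles spindle microtubules, at 6.17 and 8.89 TPM, Kif14, which works with citron kinase in abscission, at 5.39 and 5.20 TPM, and Kif18b at 4.84 and 5.32 TPM. The deposited interval of Kif20b (23.3 to 24.9 TPM in replicate 1) did not reach that of Kifc1 (5.66 to 7.59 TPM) in that library.

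All 12 spindle partners that are not kinesins of the rule were detected, with list medians of 128.9 and 124.5 TPM. The highest were Birc5, the passenger subunit survivin, at 276.7 and 265.9 TPM, Cdca8, borealin, at 188.2 and 186.8 TPM, and Racgap1, the partner of Kif23 in centralspindlin, at 173.8 and 163.7 TPM. Racgap1 was thus above Kif23 in both libraries. The lowest were Incenp at 43.8 and 49.4 TPM, Cenpe, the kinetochore kinesin whose symbol the rule does not match, at 37.5 and 34.0 TPM, and Anln at 26.3 and 24.1 TPM.

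The 10 axonal kinesins were also all detected, 8 of them at 10 TPM or more. Kif5b, the ubiquitous conventional kinesin heavy chain, was highest by gene total, at 119.2 and 109.6 TPM. Its neuron-enriched relatives Kif5c and Kif5a stood at 73.3 and 74.1 TPM and at 22.4 and 19.4 TPM. Of the KIF1 family, which carries mitochondria and synaptic vesicle precursors, Kif1b was at 69.6 and 71.0 TPM and Kif1a at 37.6 and 44.6 TPM. Kif21a, a motor that also restrains microtubule growth, was at 56.2 and 55.7 TPM and its paralog Kif21b at 9.84 and 9.11 TPM.

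The kinesin-2 motor is built from Kif3a with either Kif3b or Kif3c and the adaptor Kifap3, and serves cilia as well as axons. Its subunits were unequal: Kif3a was at 70.5 and 63.3 TPM, Kifap3 at 48.0 and 42.9 TPM, Kif3c at 15.4 and 16.5 TPM and Kif3b at 7.18 and 5.79 TPM. Kif3b was the lowest axonal kinesin in both libraries. The summed level of Kif3b and Kif3c lay below that of Kif3a in each of them. With TPM summed over protein-coding transcripts alone, Kif3a still exceeded Kif3b, 6.86-fold and 8.58-fold.

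The question behind the choice of members was how mitotic compare with axonal motors within each library. The median log2(TPM + 1) of the mitotic list minus that of the axonal list was -0.17 in replicate 1 and -0.36 in replicate 2, a mean of -0.26 ± 0.13 (SD, n = 2), or a ratio of 0.832. The values of both lists overlapped over almost their whole range, from 5.08 to 136.6 TPM (mean of the libraries) for mitotic and from 6.48 to 114.4 TPM for axonal kinesins. The difference does not keep its sign between summaries. Summed TPM was higher for the mitotic list, at 599.6 against 481.2 TPM in replicate 1 and 587.7 against 469.1 in replicate 2. The ratio was 1.25 in both. These sums are not per gene: the mitotic list has 12 genes and the axonal list 10, which by itself raises the mitotic sum. The list means of log2(TPM + 1) differed by only -0.08. Without Kifc1, which shares sequence with another gene, the difference in medians was -0.01 in replicate 1 and -0.29 in replicate 2.

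The sign also depended on which axonal motors were counted. Set against the 5 neuron-enriched axonal kinesins, Kif1a, Kif3c, Kif5a, Kif5c and Kif21b, the mitotic median was higher by 0.84 in replicate 1 and 0.95 in replicate 2. The members that this leaves out include 4 of the 5 highest axonal kinesins, Kif5b, Kif1b, Kif3a and Kif21a, which are known from many cell types besides neurons. The smallest two-sided p of a sign-flip test (exact) is 0.5 with 2 libraries, and neither order was tested.

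**Figure D2:**
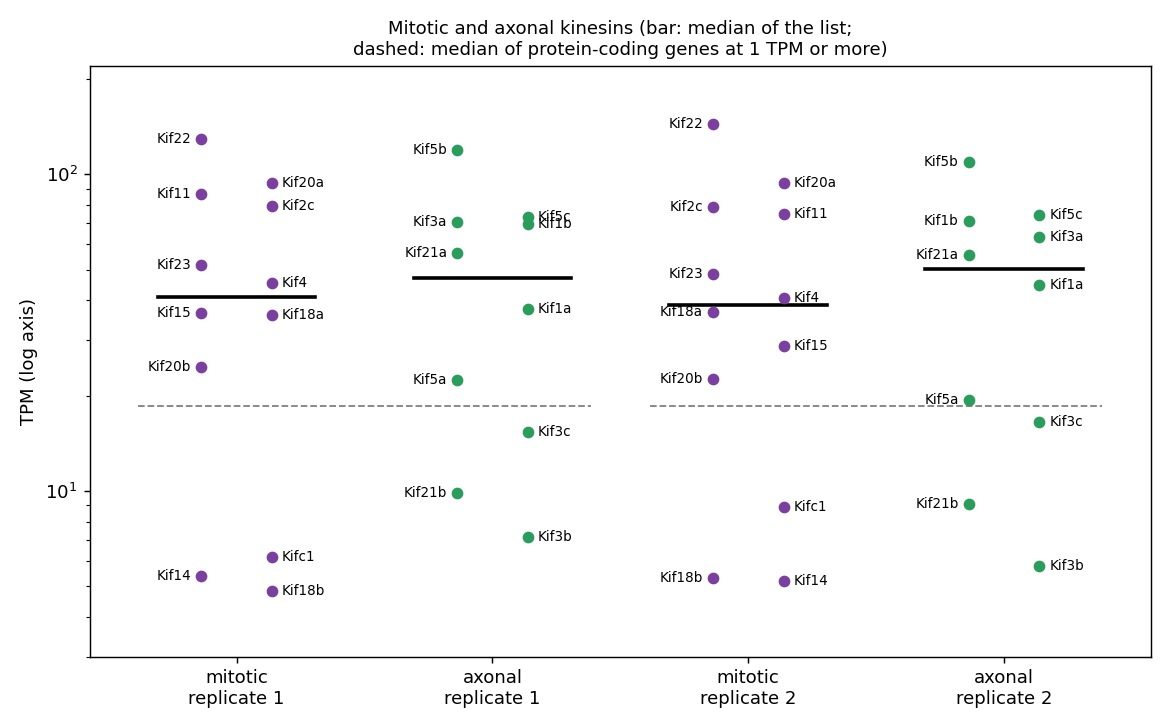
TPM (log axis) of the 12 mitotic and the 10 axonal kinesins in each library; each point is a gene, the black bar is the list median and the dashed line the median of protein-coding genes at 1 TPM or more. Both lists spread from about the same low to about the same high levels, with medians of 41.0 and 46.9 TPM in replicate 1 and 38.7 and 50.1 TPM in replicate 2.

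Many genes expressed late in the cell cycle carry short letters near their start that the DREAM and MuvB complexes, NF-Y and E2F are known to read. RefSeq promoter windows (assembly GRCm38.p6) were on hand for 50 of the 66 members, 11 of the 12 mitotic and 7 of the 10 axonal kinesins. The windows below, the 150 bases before the annotated start written 5′ to 3′ on the gene's strand, were picked after their letters were seen, to show for each list a gene with and a gene without them; all 4 overlap no exon of the GENCODE M21 annotation. Capitals mark TTTGAA or CCAAT on either strand.
Kif11 (mitotic, chr19:37376232-37376381, plus strand): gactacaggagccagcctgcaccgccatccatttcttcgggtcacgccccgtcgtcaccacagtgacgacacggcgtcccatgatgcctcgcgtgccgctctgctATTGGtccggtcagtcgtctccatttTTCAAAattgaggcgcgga
Kif20b (mitotic, chr19:34922208-34922357, plus strand): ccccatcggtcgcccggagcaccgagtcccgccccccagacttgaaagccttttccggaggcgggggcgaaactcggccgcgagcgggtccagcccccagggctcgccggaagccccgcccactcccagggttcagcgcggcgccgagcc
Kif5c (axonal, chr2:49619136-49619285, plus strand): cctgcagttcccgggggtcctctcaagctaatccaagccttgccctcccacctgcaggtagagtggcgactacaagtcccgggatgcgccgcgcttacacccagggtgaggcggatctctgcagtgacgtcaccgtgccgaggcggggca
Kif1b (axonal, chr4:149307734-149307883, minus strand): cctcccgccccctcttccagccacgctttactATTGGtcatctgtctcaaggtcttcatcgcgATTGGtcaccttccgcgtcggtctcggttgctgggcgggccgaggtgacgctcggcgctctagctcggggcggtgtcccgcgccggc

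In Kif11 the reverse complement of TTTGAA began 19 bases before the start and that of CCAAT 45 bases before it. In the Kif1b window shown, the reverse complement of CCAAT began 118 and 87 bases before the start. Kif1b has a second RefSeq start, and the matches began 153 and 122 bases before that one. The windows of Kif20b and Kif5c held neither TTTGAA nor CCAAT. Over the 250 bases before the start, on both strands, TTTGAA was present for 5 of 11 mitotic kinesins (45.5%), 1 of 7 axonal kinesins (14.3%) and 15.9% of 16317 protein-coding genes with a window. CCAAT was present for 7 of 11 (63.6%), 3 of 7 (42.9%) and 39.2%. Both together were present for 3 of 11 mitotic kinesins, Kif11, Kif14 and Kif22, for no axonal kinesin of 7, and for 5.82% of genes. CCAAT was also present for 3 of 4 kinesin cargo-binding subunits and 3 of 4 dynactin genes with a window. In the remaining roles it ran from 0 of 4 dynein core genes to 3 of 6 cilium kinesins. Of 9 spindle partners with a window, 2 held TTTGAA, 6 held CCAAT and 2 held both.

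The E2F letters TTTGGCGC or TTTCGCGC were present for 2 of 11 mitotic kinesins, Kif15 at 27 and Kif18a at 10 bases before the start, for none of the axonal kinesins and for 0.999% of genes. None of the 9 spindle partners with a window held the E2F letters. In the 100 bases before the start TTTGAA remained for 3 of 11 mitotic and 1 of 7 axonal kinesins, and 5.16% of genes. Letters were counted in RefSeq windows, and starts differ between annotations. The last 35 bases of the Kif15 window and the last 51 bases of the Kif22 window lie in an exon of the same gene in GENCODE, and so does the whole 150-base window of Kif4. The TTTGAA matches of Kif14 and Kif2c, among the 5 mitotic ones, and of Kif1a, the single axonal one, lie in windows inside their GENCODE genes, downstream of the first annotated start.

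Kinesins outside both lists were mostly low. Kif2a, a depolymerase that limits axon branching, was at 21.2 and 22.8 TPM and was the only member of its list at 10 TPM or more. Kif13a, an endosome motor, was at 8.04 and 8.68 TPM, Kif1c at 4.60 and 5.34 TPM, and Kif16b at 4.31 and 3.62 TPM. Kif26a, Kif26b, Kifc2, Kifc3 and Kif13b all had means between 1.36 and 2.70 TPM. Kif12, Kif2b and Kif28 had no count in either library, which allows up to 3 counts, or 0.0772 CPM in replicate 1 and 0.0653 CPM in replicate 2 (counting error only).

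Of the 7 cilium kinesins 3 were detected. Kif24, which acts at the mother centriole, was listed at 7.47 and 7.30 TPM, but protein-coding transcripts made up 38.2% and 54.4% of that. Kif7, the motor that organises the ciliary tip in Hedgehog signalling, was at 2.15 and 3.59 TPM. Kif6 was at 1.61 and 1.17 TPM, but at only 0.30 and 0.68 TPM on protein-coding transcripts. Kif27, Kif9, Kif19a and Kif17 stayed under 1 TPM in both libraries, with means between 0.355 and 0.825 TPM. Axonemal dynein, the motor of motile cilia, reached 1 TPM in both libraries for 3 of the 10 genes matched by symbol, Dnah1, Dnah7a and Dnah7b. On protein-coding transcripts alone Dnah1 was at 1.88 and 1.94 TPM, Dnah7a at 0.02 and 0.01 and Dnah7b at 0.58 and 0.53. Cytoplasmic dynein 2, which returns cargo from the ciliary tip, was detected for 5 of 5 genes with list medians of 19.5 and 19.9 TPM.

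Conventional kinesin binds cargo through its light chains. Klc1, the neuron-enriched light chain, was the highest kinesin subunit of all, at 220.6 and 217.2 TPM. Klc4 was at 20.1 and 22.8 TPM and Klc2 at 18.7 and 19.6 TPM, and their deposited intervals overlapped. Klc3 was at 0.29 and 1.10 TPM and so missed the threshold in replicate 1. All 10 kinesin adaptors outside the rule were detected, from Fez1 at 313.2 and 294.3 TPM down to Rhot2 at 5.27 and 6.68 TPM.

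Of the 5 dynein core genes 4 were detected, at unequal levels. Dync1i2, an intermediate chain that links the motor to dynactin, was at 157.7 and 145.8 TPM. The light intermediate chains, which bind the cargo adaptors, were at 75.5 and 60.6 TPM for Dync1li1 and 66.1 and 61.3 TPM for Dync1li2. The heavy chain Dync1h1, which holds the motor itself, was listed at 64.0 and 57.8 TPM. Dync1i1, the neuron-enriched intermediate chain, was at 0.50 and 0.89 TPM, from 33 and 69 counts. The 6 neuron markers were all at 24.1 TPM or more in the mean of the libraries.

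The 3 highest members were dynein light chains, Dynll1, Dynlt1b and Dynlrb1, while Dynll2, Dynlt3 and Dynlrb2 had means of 16.5, 19.4 and 0.51 TPM. Dynll1, the LC8 dimer that also binds many proteins outside dynein, was listed at 1195.6 and 1229.1 TPM, of which 460.8 and 490.0 TPM fell on protein-coding transcripts. Counted that way it was below Dynlt1b (474.9 TPM) in replicate 1 and above it (483.5 TPM) in replicate 2. Dynlrb1, the roadblock light chain, was at 376.1 and 396.9 TPM, and its paralog Dynlrb2 at 0.47 and 0.55 TPM from 5 and 7 counts. Dynlt3, a Tctex-type chain, was at 21.4 and 17.4 TPM.

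The 4 Dynlt1 copies on chromosome 17 must be read with care. Dynlt1b was listed at 474.9 and 483.5 TPM, Dynlt1f at 188.2 and 194.4, Dynlt1a at 92.8 and 97.2, and Dynlt1c at 52.3 and 53.4. Of the 50-base words in their annotated transcripts, 83.2%, 88.6%, 63.0% and 84.4% also occur in other genes, chiefly in each other. The processed pseudogene Dynlt1-ps1 on chromosome 6 was listed at 98.8 and 131.5 TPM. The split of reads between these copies is an estimate, so their separate levels are uncertain. Among the remaining members, 39.7% of Kifc1 words are shared, mainly with Kifc5b (1.42 and 1.90 TPM), and 5.03% or less in each other member.

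All 6 dynactin genes of the rule were detected, all above 10 TPM. Dctn2, dynamitin, was at 134.2 and 142.7 TPM, Dctn3, p24, at 117.1 and 118.9, and Dctn1, the p150 subunit that grips the microtubule, at 59.9 and 62.1. Of the pointed-end subunits within the rule, Dctn6 was listed at 111.7 and 106.0, Dctn5 at 107.8 and 108.0 and Dctn4 at 56.2 and 51.2. The listed rod and cap genes outside the rule, with Actr10 of the pointed end among them, were all detected as well, 6 of 6. Their list medians were 183.6 and 180.4 TPM. Capza2, a cap subunit shared with the actin cytoskeleton, was highest at 240.7 and 211.7 TPM, and Actr10 lowest at 60.1 and 57.5. Of 16 dynein regulators and adaptors 14 were detected, led by Nde1 at 134.1 and 139.2 TPM and Pafah1b1, the lissencephaly gene Lis1, at 82.5 and 76.7. Rilp and Bicdl2 were not.

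Paralogs and partners were compared in 34 pairs. A pair was called when the deposited TPM intervals did not overlap and kept their order in both libraries, and ratios are of TPM + 0.1. This held for 30 of 34 pairs, and for 23 of the 27 pairs with both genes detected. The same rule called 90.3% of all pairs of detected protein-coding genes, so a separation of this kind is usual at this depth and the sizes carry the information. The intervals reflect assignment and sampling of reads within a library, not variation between embryos.

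The widest ratios were between subunits that can fill the same place in a complex. Dync1i2 exceeded Dync1i1 262.9-fold and 147.3-fold, Dynlrb1 exceeded Dynlrb2 660.0-fold and 610.8-fold, and Klc1 exceeded Klc3 565.8-fold and 181.1-fold. The lower gene of each of these pairs was under 1 TPM in at least 1 library, so the ratios rest on few counts. Dynll1 exceeded Dynll2, whose protein has the same length of 89 residues, 76.1-fold and 70.4-fold, or 29.3-fold and 28.1-fold on protein-coding transcripts alone.

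Intermediate ratios separated most kinesin families. Kif18a was 7.26-fold and 6.80-fold above Kif18b, Kif21a 5.66-fold and 6.06-fold above Kif21b, Kif13a 4.73-fold and 7.32-fold above Kif13b, and Kif20a 3.79-fold and 4.16-fold above Kif20b. Kif5b was 1.62-fold and 1.48-fold above Kif5c, which was in turn 3.27-fold and 3.80-fold above Kif5a. The order of Kif5b and Kif5c holds for gene totals only. The full-length Kif5b-201 alone, at 53.3 and 47.4 TPM, was below Kif5c-201 at 73.2 and 74.1 TPM. Kif11 was 2.38-fold and 2.60-fold above Kif15. The 4 pairs that were not called were Kif26a with Kif26b, Kifc2 with Kifc3, Klc4 with Klc2, and Dync1li1 with Dync1li2. In 3 of them, all but Klc4 with Klc2, the order changed between the libraries.

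**Figure D3:**
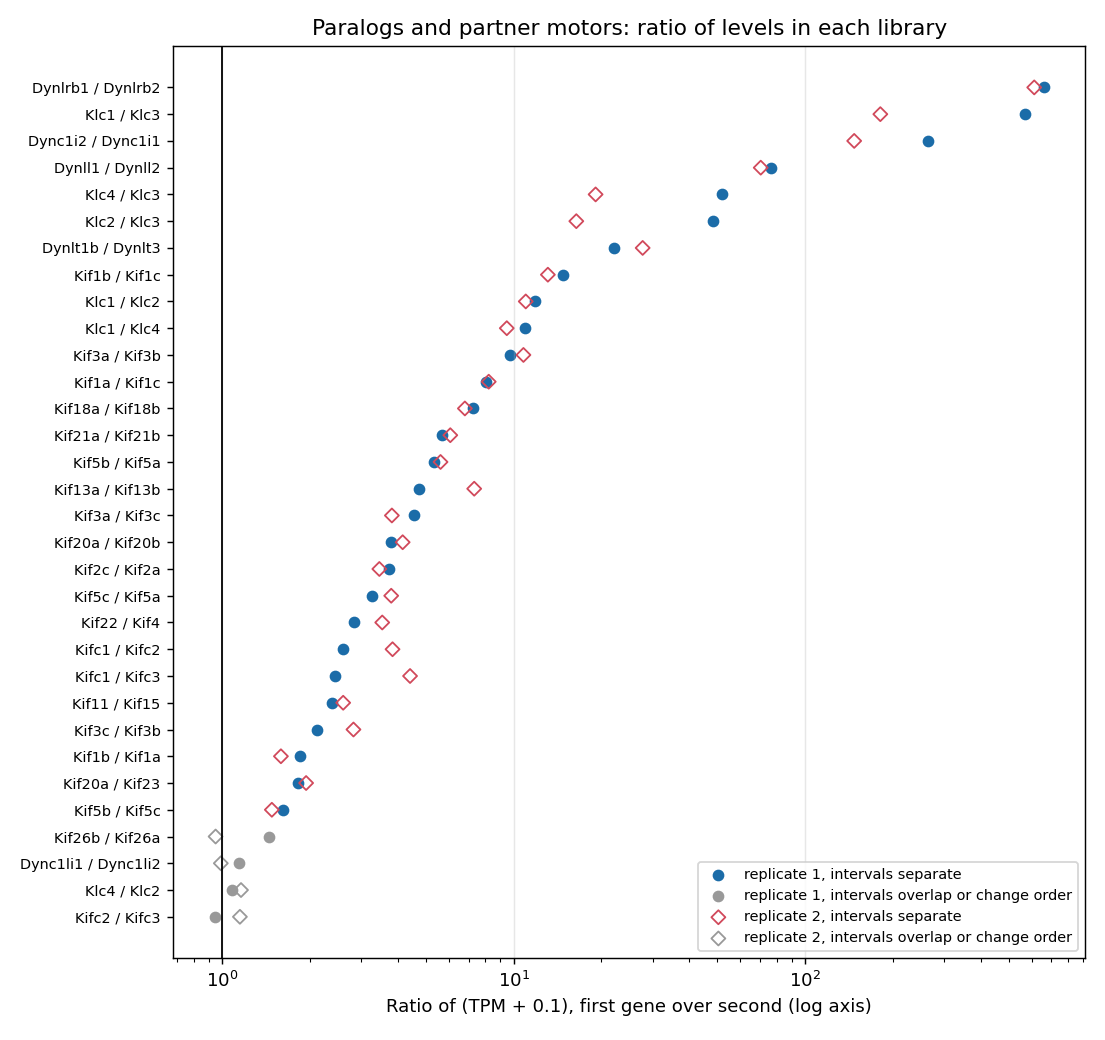
Ratio of TPM + 0.1 (log axis) between the first and second gene of each pair, in replicate 1 (filled circles) and replicate 2 (open diamonds); grey marks are the 4 pairs not called, and both pairs with Kif2b, which has no counts, are left out. Ratios run from near 1 for the light intermediate chains to above 600 for Dynlrb1 over Dynlrb2.

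Gene totals hide what kind of transcript was counted. For 6 of the 56 detected members (10.7%) less than 50% of TPM, averaged over the libraries, fell on transcripts annotated as protein-coding, against 7.25% of detected protein-coding genes. These were Dync1h1, Dynll1, Dctn6, Dynlt1c, Kif24 and Kif6. The largest gap between scales was in Dync1h1. Its retained-intron transcript Dync1h1-204, 427 nucleotides long, took 44.5% and 46.6% of the gene's TPM from 249.92 and 283.22 expected counts. The full-length transcript Dync1h1-201, 14342 nucleotides for 4644 residues, held 9895.05 and 11682.87 counts and 25.9 and 25.6 TPM. Protein-coding transcripts thus had 96.3% and 96.9% of the counts but 41.4% and 44.3% of the TPM of the heavy chain.

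In Dynll1 the processed transcript Dynll1-203 took 41.8% and 41.4% of TPM and the coding transcript Dynll1-202 33.5% and 34.8%. In Dctn6 the retained-intron transcript Dctn6-210 took 59.0% and 57.4%, and coding transcripts together 15.4% and 18.3%, or 17.2 and 19.4 TPM. No TPM of Dynlt1c fell on a protein-coding transcript. Counted on protein-coding transcripts alone, 54 members rather than 56 reached 1 TPM in both libraries.

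**Figure D4:**
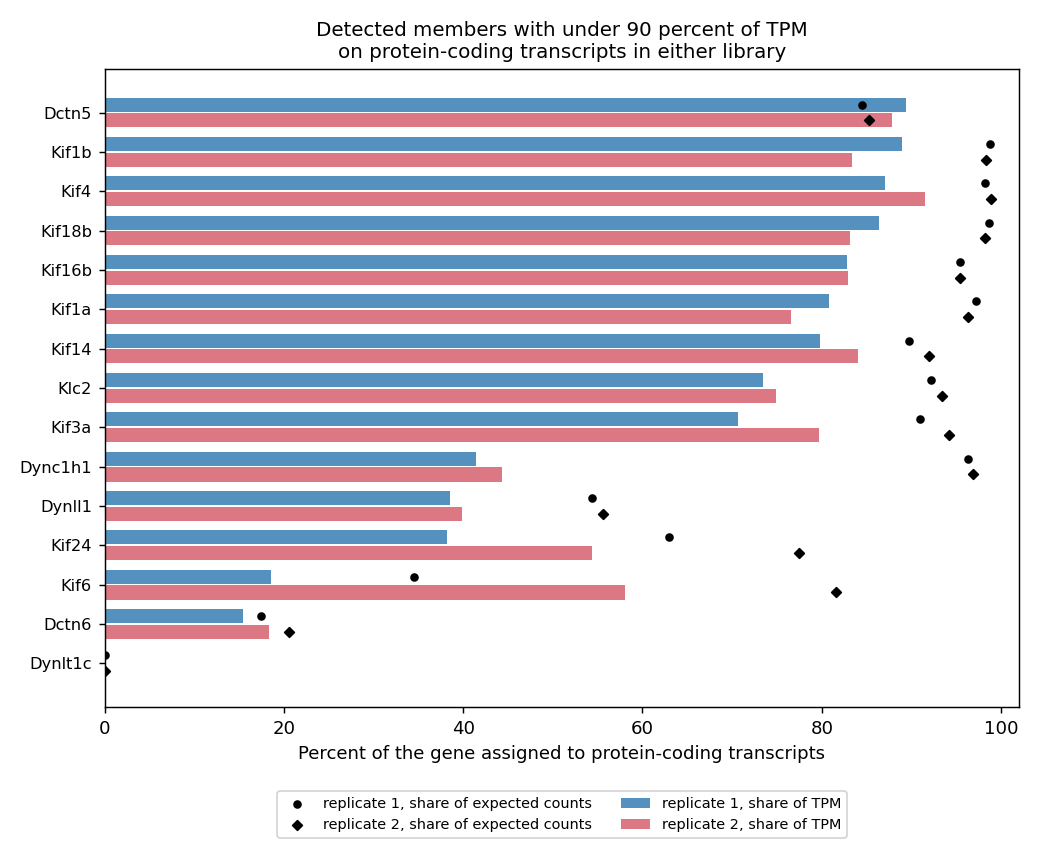
Share of each gene on protein-coding transcripts, in percent, for the detected members under 90 percent in either library: bars give the share of TPM, black circles (replicate 1) and diamonds (replicate 2) the share of expected counts. The Dync1h1 bars stop at 41.4% and 44.3% while its points lie at 96.3% and 96.9%.

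Isoform shares of several motors were close in the 2 libraries. Kif1b divided between Kif1b-203, which encodes 1816 residues, at 51.6% and 48.0%, and the shorter-tailed Kif1b-201 of 1150 residues at 37.3% and 35.4%. Kif5b was split between Kif5b-202, of 619 residues, at 51.6% and 53.3%, and the full-length Kif5b-201, of 963 residues, at 44.7% and 43.3% of TPM, although the latter held more counts (8470.66 against 3140.38 in replicate 1). Klc1 was spread over Klc1-203 at 48.4% and 50.1%, Klc1-202 at 21.5% and 19.4%, Klc1-201 at 14.3% and 16.5% and Klc1-204 at 10.2% and 9.95%. In Kif1a the transcript with the largest share, Kif1a-206 at 36.7% and 38.0%, encodes 109 residues, and the long Kif1a-204 of 1697 residues had 24.4% and 21.7%.

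Among the 37 detected members with more than 1 transcript, 35 had the same leading transcript in both libraries, where 91.7% of such protein-coding genes did. The exceptions were Kif6 and Kif7, both low. In Kif7 the lead passed from Kif7-202 to Kif7-203, and these encode proteins of the same length, 1348 residues. Shares below the lead could still move: Kif3a-201 had 13.5% in replicate 1 and 0.10% in replicate 2, while Kif3a-208 went from 10.3% to 29.4%. The leading transcript was not protein-coding for 6 of the 37 in replicate 1, a count that was not made over all protein-coding genes. Among these, Kif6 had the protein-coding Kif6-207 as its lead in replicate 2.

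Levels were close between the libraries. Counts were compared with a two-sided exact binomial test against TMM-scaled library sizes, with Benjamini-Hochberg adjustment over the 17148 genes that had a summed count of 20. The test compares these libraries and holds no biological replication. At an adjusted p under 0.05 and a 2-fold ratio, 2 of 62 members tested were higher in replicate 2 and none were lower, against 1.38% and 1.56% of all genes tested. By adjusted p alone 36 of 62 passed, 18 in each direction, against 35.5% of genes. Those genes include many of low count. Of the 12496 protein-coding genes detected at 1 TPM, 5109 passed by adjusted p alone. The median absolute log2 ratio was 0.10 for members and 0.12 for protein-coding genes. An edgeR exact test with a coefficient of variation of 0.1 between libraries called none of the members.

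Both calls were of low genes. Kif9, a kinesin of motile cilia, had 29 and 79 counts, a log2 ratio of 1.17 (adjusted p = 4.13e-04, exact binomial test), and its deposited TPM intervals were separate. Klc3 had 13.02 and 50.48 expected counts, a log2 ratio of 1.63 (adjusted p = 2.73e-04, exact binomial test), but its intervals overlapped and the transcript holding the counts differed. Beside them the motile-cilia markers summed to 6.39 and 7.20 TPM, 2 of 4 were detected, and Rsph1 rose from 14 to 47 counts, a log2 ratio of 1.44 that was also called. Rsph1 was the only marker of the list called. Ccdc39 had 290.74 and 311.15 expected counts and a log2 ratio of -0.15, Foxj1, the defining factor of that cell type, had a log2 ratio of 0.14 at 2.71 and 2.96 TPM, and Mcidas was at 0.10 TPM in both libraries. Their part in the Kif9 and Klc3 ratios was not tested.

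Below the 2-fold line, Kif7 had the next largest ratio among members with over 100 counts in each library, 255.58 against 512.88 expected counts and a log2 of 0.75. Kif13b was lower in replicate 2 by a log2 of -0.55. The mitotic and axonal lists had median log2 ratios of -0.01 and -0.07, with 12 and 10 genes tested and none called. The 3 highest mitotic kinesins moved in different directions: 0.17 for Kif22, 0.01 for Kif20a and -0.20 for Kif11. None of the tested genes in the 6 partner lists was called.

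**Figure D5:**
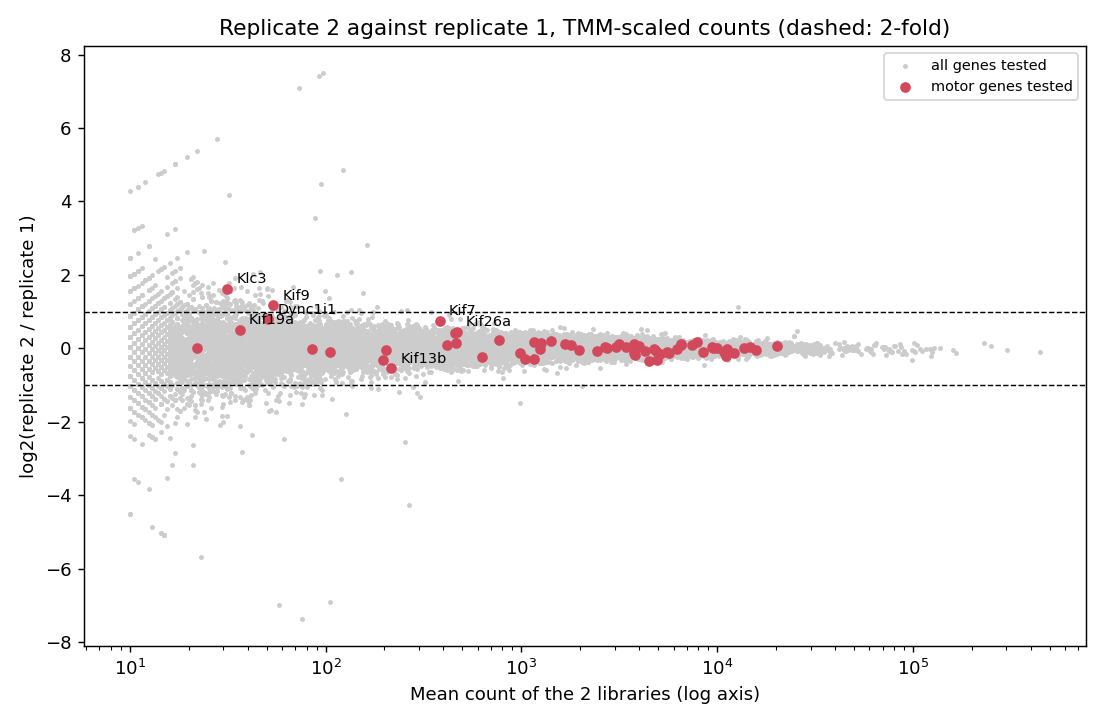
log2 ratio of replicate 2 over replicate 1 against the mean count (log axis), TMM-scaled, for all genes tested (grey) and the 62 members tested (red); dashed lines mark a 2-fold ratio. The most abundant members lie close to the zero line, and Kif9 and Klc3 lie above the upper dashed line.

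Within 100000 bases of each other lay 2 pairs of members (GENCODE M21 on mm10). Dctn2 and Kif5a are neighbours on chromosome 10, on opposite strands and 3019 bases apart, at 134.2 and 22.4 TPM in replicate 1. Dynlt1c and Dynlt1f lie 36827 bases apart on chromosome 17. Several members overlap exons of genes on the other strand, among them Kif20a with Cdc23, Kif4 with Pdzd11, Klc1 with Xrcc3 and Kif7 with Ticrr. The sources used here do not say if counting used strand, so reads of such overlaps could not be told apart.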

How the data were processed

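Total RNA of 2 pooled midbrain samples was extracted with mirVana and sequenced following a Smart-seq protocol, per the labels' protocols. Assembly mm10 and annotation M4 were used, per the deposited descriptions of the files. Sources used here name no aligner or quantifier. Per the file headers, the deposited tables hold, per gene and per transcript, the expected count, TPM, FPKM, posterior mean values, interval bounds of TPM (a non-negative signal whose level is not given) and, for transcripts, the percent of the gene's TPM. TPM was scaled by the authors over all rows, spike-ins included.

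Identifiers without version were matched to GENCODE M21 (42462 of 43346), which also gave transcript types. Replicates are separate pools of embryos and are the spread that SD measures. Detection was 1 TPM in both libraries; list medians used log2(TPM + 1) and pair ratios TPM + 0.1. Expected counts were rounded for the binomial test (scipy 1.17.1), scaled by TMM in edgeR 4.0.16 on R 4.3.3, and genes with a summed count under 20 were left out. The library test was tested on simulated data. Alternatives included DESeq2 1.42.0 size factors, spike-in scaling and leaving out each library. Any member could be named; of each partner list at most the 3 highest and 3 lowest. The members and lists were chosen with earlier results of these data known. Promoter windows came from RefSeq (GRCm38.p6, a patch release of GRCm38, the base assembly of mm10).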

Additional observations from a re-analysis of the deposited data

How the results depend on the processing

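The mitotic minus axonal median, -0.26 in log2(TPM + 1), ranged from -0.36 to -0.17 when either library was left out. It moved to -0.08 with list means and to -0.13 on protein-coding transcripts only (chosen after seeing the data), and reversed to 0.89 against the 5 neuron-enriched axonal kinesins, which leaves out 5 genes by construction; for the others the cause was not tested. It moved by less than its SD under a pseudocount of 0.1, posterior mean TPM, FPKM, a 1 TPM filter and rescaling without spike-ins (-0.28 to -0.26). Without Kifc1 it was -0.15, within that SD but over 1.5 times smaller, with -0.01 in replicate 1 and -0.29 in replicate 2. The number of detected members, 56, was 56 to 57 when a library was left out and 46 to 63 over thresholds of 5 and 0.1 TPM. Called pairs were 30 to 32 when a library was left out and 27 with a 2-fold minimum. The 2 members that differed between libraries, Kif9 and Klc3, were the same under DESeq2 size factors, total counts, spike-in counts and no filter. They became 1 (Kif9) at a summed count of at least 100, 36 by adjusted p alone, and 0 with the edgeR exact test, where the larger assumed spread is the construction. Leading transcripts were the same for 36 of 37 by posterior mean and 35 by expected count. TTTGAA was found for 3 mitotic kinesins, not 5, in 100 bases, where the shorter window is the cause. No paired analysis was possible because there is 1 group. Low genes such as Dynlrb2, Klc3 and Kif17 rest on few counts.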
